A study of Mus musculus with 6 samples.

Results

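The interferon regulatory factor (IRF) family was followed through checkpoint receptor blockade as 9 genes taken by name. *Irf1*, *Irf2*, *Irf3*, *Irf4*, *Irf5*, *Irf7*, *Irf8*, and *Irf9* encode the DNA-binding IRF proteins, and *Irf2bp2* encodes a corepressor that binds IRF2. All 9 symbols matched an Ensembl identifier among the 47643 genes of the count table, and all 9 were among the 11877 genes that held at least 10 reads over the 6 libraries and were tested. The members took between 0.0840% and 0.109% of the reads of a library. *Irf2bp1* and *Irf2bpl*, which are related to *Irf2bp2*, were also tested.

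IRF proteins bind DNA through a conserved N-terminal domain that reads GAAA repeats, the core of interferon-stimulated response elements (ISREs). *Irf3*, *Irf5*, and *Irf7* encode latent factors that are activated by phosphorylation downstream of nucleic acid sensors and Toll-like receptors, *Irf9* encodes the DNA-binding subunit of the interferon-activated complex ISGF3, and *Irf1* and *Irf2* encode an interferon-induced activator and its antagonist. *Irf4* and *Irf8* are paralogs whose products bind DNA weakly alone and pair with ETS or BATF-AP-1 partners. In T cells *Irf4* is transcribed in response to T cell receptor (TCR) signaling, and *Irf8* can be too.

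The libraries came from spleens of Tg4 Tiger *Nr4a3*-Tocky mice, which carry a transgenic TCR for a myelin basic protein (MBP) peptide, an *Il10*-GFP reporter, and a fluorescent Timer protein under *Nr4a3* control that is blue when new and turns red. Every mouse received 80 μg of 4Y MBP peptide, then after 24 h 800 μg of antibody, and 30 min later a further 8 μg of peptide, with spleens taken 4 h after that. The 3 groups of 2 mice differed in the antibody: an isotype pool of rat IgG1 and IgG2a, anti-PD1, or anti-Lag3. CD4+ T cells that were both Timer Blue+ and Red+ were sorted, so the libraries hold cells that had already signaled through the TCR, and not the CD4+ compartment as a whole. The question put to these genes was whether *Irf4* and *Irf8* moved apart from the other members when a checkpoint receptor was blocked during re-exposure to antigen. The paper had already reported both genes as upregulated with anti-PD1 in this experiment. Setting the pair against the rest therefore describes a known result and is no independent evidence for it.

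Libraries held 2107715 to 2648920 reads, and 3 reads correspond to 1.11 to 1.44 CPM, the reads of a gene relative to its library's total after TMM scaling. The 10 T cell markers summed to between 2411 and 2817 CPM in every library. *Nr4a3* itself, whose promoter drives the sorted reporter, lay at 51.4 and 45.1 CPM with isotype, 29.7 and 29.4 with anti-PD1, and 40.9 and 36.8 with anti-Lag3. Transcripts of the blocked receptors were low in all libraries (*Pdcd1*, 12.3 to 17.1 CPM, and *Lag3*, at most 7.59 CPM), and an antibody to a surface protein need not change either. Each library is a bulk sample, so a change in the fraction of cells that use a gene and a change in RNA per cell cannot be told apart.

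Promoter sequences of 4 members are given because their transcripts were the most abundant of the family and include those that separated the groups. They are the upstream bases free of annotated exons within the RefSeq window of 250 bases before to 50 bases after the start site (GRCm38.p6, forward strand). Capitals mark matches, on either strand, to a kappaB motif (GGGNNTNCC) or to a STAT motif of the gamma-activated site (GAS, TTCNNNGAA).
*Irf8*, chr8:120736108-120736357: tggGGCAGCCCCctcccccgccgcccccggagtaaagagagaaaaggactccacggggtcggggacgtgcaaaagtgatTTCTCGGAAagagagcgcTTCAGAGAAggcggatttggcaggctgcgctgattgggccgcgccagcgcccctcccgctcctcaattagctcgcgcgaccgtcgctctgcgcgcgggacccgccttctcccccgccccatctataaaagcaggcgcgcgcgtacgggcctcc
*Irf4*, chr13:30748983-30749225: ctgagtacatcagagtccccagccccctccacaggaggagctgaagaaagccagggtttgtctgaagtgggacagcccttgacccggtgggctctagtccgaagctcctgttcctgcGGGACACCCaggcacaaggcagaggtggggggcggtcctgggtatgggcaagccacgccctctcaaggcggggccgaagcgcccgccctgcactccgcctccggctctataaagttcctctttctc
*Irf1*, chr11:53769764-53770013: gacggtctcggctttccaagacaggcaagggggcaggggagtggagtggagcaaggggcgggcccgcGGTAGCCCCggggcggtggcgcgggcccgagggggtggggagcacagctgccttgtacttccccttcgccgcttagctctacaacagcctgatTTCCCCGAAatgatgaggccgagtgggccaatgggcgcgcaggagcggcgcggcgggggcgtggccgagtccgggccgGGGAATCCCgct
*Irf2*, chr8:46739516-46739731: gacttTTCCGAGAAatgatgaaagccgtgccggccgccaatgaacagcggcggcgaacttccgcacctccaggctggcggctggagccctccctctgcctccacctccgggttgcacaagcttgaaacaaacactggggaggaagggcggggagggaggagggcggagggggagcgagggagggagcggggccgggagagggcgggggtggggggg
Over the 12 RefSeq windows of the 9 members, a kappaB match lay in windows of 5 members (*Irf1*, *Irf2*, *Irf4*, *Irf5*, and *Irf8*), and 16.4% of all 32817 promoter windows hold one. A GAS match lay in those of *Irf1*, *Irf2*, and *Irf8*, against 8.29% of all windows, and *Irf8* had 2 within its window. The ISRE letters GAAANNGAA were found in *Irf2* and *Irf2bp2* (8.55% of all windows), the ETS-IRF letters GGAANNGAA in *Irf2* only (8.25%), and the AP-1 letters TGANTCA in none of the members (7.81%). The ISRE, ETS-IRF, and kappaB matches of *Irf2* fall outside the stretch printed. These are letter matches in a short window, and no binding was measured here.

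*Irf4* and *Irf8* were the most abundant family transcripts in every group, and after anti-PD1 both rose further while none of the other 7 members passed the test. *Irf8* rose 1.63-fold and *Irf4* 1.43-fold against isotype. *Irf2*, the next most affected member, had a lower level with anti-PD1 in both mice but an adjusted p just above the threshold. The plot of CPM by library shows all 9 genes.

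**Figure D1:**
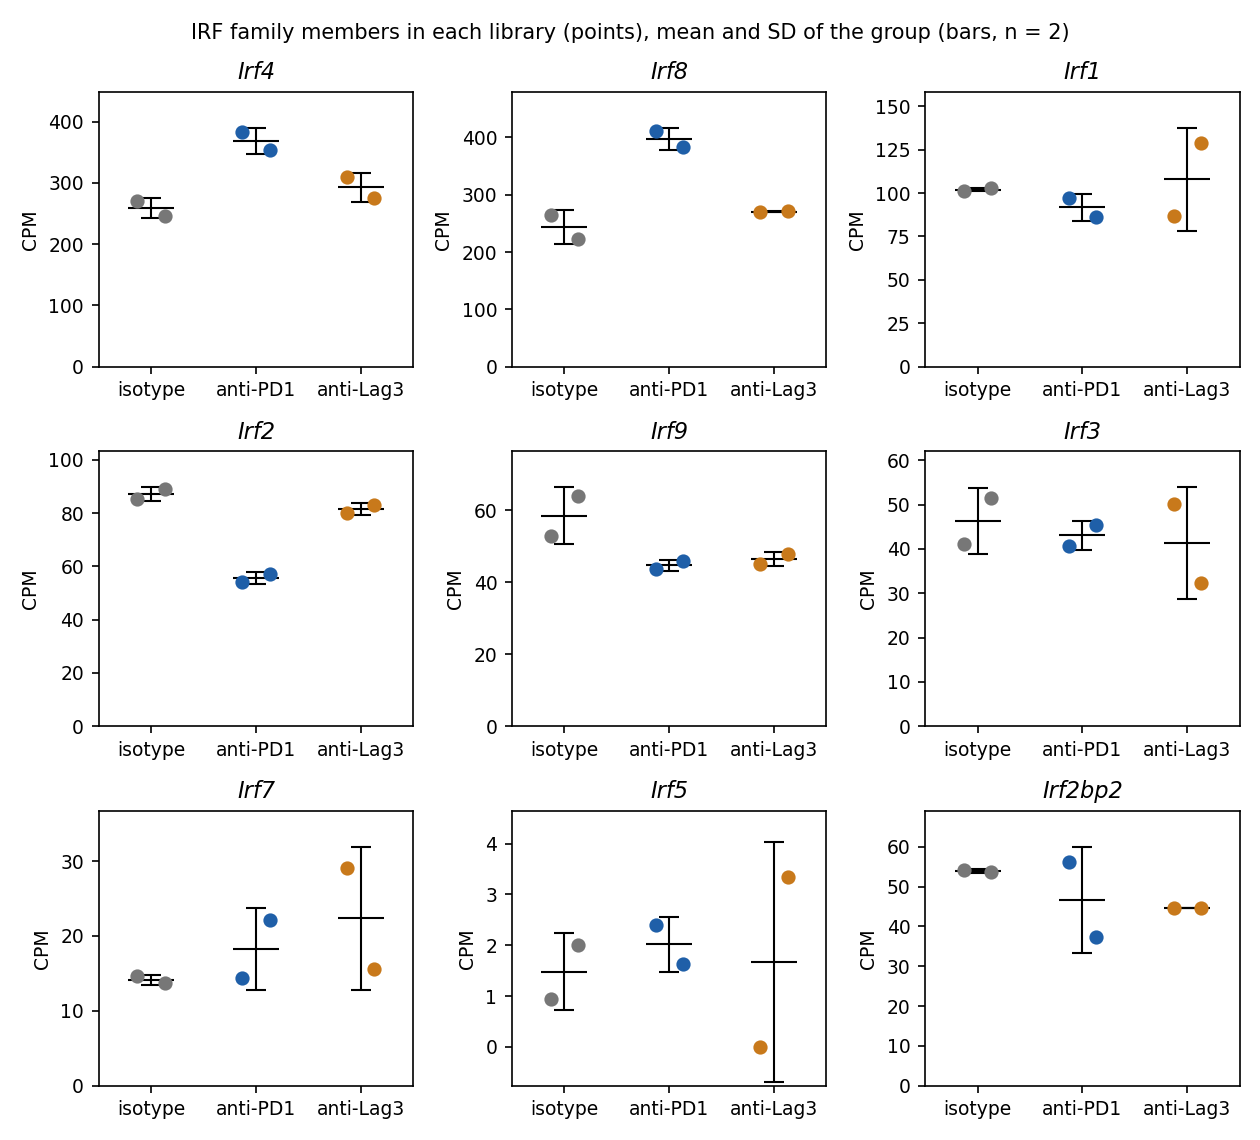
Normalized level (CPM, linear axis) of each of the 9 members in the 6 libraries, with points for the mice and horizontal bars for the group mean ± SD (n = 2). *Irf4* and *Irf8* lie highest in the 2 anti-PD1 libraries, *Irf2* lies lowest there, and the *Irf5* panel spans 0 to 3.34 CPM only.

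QuantSeq primes from the poly(A) tail and gives about 1 read near the 3′ end per captured transcript, so CPM were not divided by gene length, and differences in capture between genes were not corrected. On that scale the order with isotype was *Irf4* (258 ± 16.5 CPM, SD, n = 2), *Irf8* (243 ± 29.5), *Irf1* (102 ± 0.936), *Irf2* (87.1 ± 2.59), *Irf9* (58.4 ± 7.93), *Irf2bp2* (53.9 ± 0.466), *Irf3* (46.3 ± 7.44), *Irf7* (14.1 ± 0.653), and *Irf5* (1.48 ± 0.757). *Irf4* and *Irf8* overlapped between mice and so did *Irf9* and *Irf2bp2*, whereas each other neighbor in this order was separated in both mice. With anti-PD1, *Irf8* (398 ± 19.2 CPM) came before *Irf4* (369 ± 21.0), with 384.0 CPM in the lower *Irf8* library and 383.8 CPM in the higher *Irf4* library, and *Irf1* (91.8 ± 7.77) stood next. With anti-Lag3, *Irf4* (293 ± 23.7 CPM) was above *Irf8* (271 ± 0.591) in both mice, and *Irf1* (108 ± 29.7) and *Irf2* (81.7 ± 2.18) followed at a distance smaller than the SD of *Irf1*.

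*Irf8* (ENSMUSG00000041515, GRCm38 chr8:120736358-120756694, forward strand) measured 264 and 223 CPM in the isotype mice, 411 and 384 CPM in the anti-PD1 mice, and 270 and 271 CPM in the anti-Lag3 mice. Both anti-PD1 libraries were above the other 4, and the anti-Lag3 libraries were above both isotype libraries by a small margin. These levels rest on 553 to 939 reads per library. Against isotype the log2 fold change with anti-PD1 was 0.71 (SE 0.11, 95% interval 0.48 to 0.94, adjusted p = 1.0e-04 by the edgeR quasi-likelihood test with Benjamini-Hochberg adjustment). The call held without each of the libraries in turn, with log2 fold changes of 0.59 to 0.84 and an adjusted p of at most 0.0372 by edgeR. *Irf8* shares its locus with *Gm20388*, annotated across it on the same strand, which had 0 reads in all libraries and shares no exonic base.

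*Irf4* (ENSMUSG00000021356, chr13:30749226-30766976, forward strand) measured 270.0 and 247 CPM with isotype, 384 and 354 CPM with anti-PD1, and 309.5 and 276 CPM with anti-Lag3, from 573 to 866 reads. The groups did not overlap, and anti-PD1 was highest. Its log2 fold change with anti-PD1 against isotype was 0.51 (SE 0.11, 95% interval 0.29 to 0.74, adjusted p = 0.00802 by edgeR). This call depended on single libraries: the edgeR adjusted p was 0.233 without isotype 2, 0.257 without anti-PD1 1, and 0.0732 without anti-PD1 2, while the log2 fold change stayed between 0.45 and 0.58. No gene is annotated over *Irf4* on either strand.

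For 2 of 9 members to be called is to be read against 0.901% of all tested genes called in this comparison, 0.631% as higher and 0.269% as lower. Without adjustment, 3 of 9 members (*Irf4*, *Irf8*, and *Irf2*) had a p under 0.05, against 8.12% of all genes. The 2 anti-PD1 libraries lay apart from the 2 isotype libraries for 5 members (*Irf4* and *Irf8* higher, *Irf1*, *Irf2*, and *Irf9* lower), and such separation held for 37.4% of all genes (19.2% higher and 18.2% lower). The median log2 fold change was 0.61 for *Irf4* and *Irf8*, -0.15 for the other 7 members, and 0.00 for all genes tested. The pair was set apart with its increase already known, so this contrast is a description only. DESeq2 and limma-voom called the same pair and no other member, and called 0.606% and 0.859% of all genes.

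*Irf2* (ENSMUSG00000031627, chr8:46739732-46847458) encodes the factor that competes with IRF1 for ISREs. It measured 85.3 and 89.0 CPM with isotype, 54.1 and 57.2 CPM with anti-PD1, and 80.1 and 83.2 CPM with anti-Lag3, from 113 to 224 reads. The anti-PD1 libraries lay below the other 4, with a log2 fold change of -0.64 against isotype (SE 0.17, 95% interval -0.998 to -0.291, edgeR adjusted p = 0.0623). *Irf2* passed the threshold when only the 4 samples of the comparison were fitted (edgeR adjusted p = 0.0342). Over the 10 alternative settings, by edgeR, DESeq2, or limma-voom, its adjusted p ran from 0.0342 to 0.292. Leaving out each library in turn gave log2 fold changes from -0.69 to -0.61.

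The interferon-linked members gave no call with anti-PD1. *Irf1* (ENSMUSG00000018899, chr11:53770014-53778374) was at 101 and 103 CPM with isotype and 97.3 and 86.3 CPM with anti-PD1, a log2 fold change of -0.15 with a 95% interval of -0.50 to 0.19. *Irf9* (ENSMUSG00000002325, chr14:55603571-55610030) was at 52.8 and 64.0 CPM against 43.6 and 45.8 CPM, a log2 fold change of -0.39 (-0.80 to 0.03). Both genes were lower in both anti-PD1 mice, by amounts whose intervals include 0. The latent factor *Irf3* (ENSMUSG00000003184, chr7:44997648-45002848) ranged from 32.3 to 51.5 CPM over the 6 libraries with overlapping groups, and its log2 fold change was -0.11 (-0.57 to 0.36). *Irf7* (ENSMUSG00000025498, chr7:141262706-141266481), itself an interferon-induced gene, was at 14.6 and 13.7 CPM with isotype and 14.4 and 22.1 with anti-PD1, and *Irf2bp2* (ENSMUSG00000051495, chr8:126588296-126593986) was at 54.2 and 53.5 against 56.1 and 37.2 CPM. In each of these 2 genes a single anti-PD1 library departed from the isotype values, upward for *Irf7* and downward for *Irf2bp2*. The 95% intervals of *Irf3*, *Irf7*, *Irf9*, and *Irf2bp2* include changes as large as the 0.51 of *Irf4* in at least 1 direction, and that of *Irf1* does not.

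*Irf5* (ENSMUSG00000029771, chr6:29526625-29541871), which is known from B cells and myeloid cells, had 2, 5, 5, 4, 0, and 9 reads in isotype 1 and 2, anti-PD1 1 and 2, and anti-Lag3 1 and 2. The 0 of anti-Lag3 1 allows up to 1.27 CPM, counting error only, and the log2 fold change of 0.41 with anti-PD1 had an interval of -2.11 to 2.92. No difference was detectable at this depth. The last exon of *Irf5* is 256 bases long, of which 251 are overlapped on the other strand by *Tnpo3* (395 to 512 reads per library), and since the strand setting of the counting is not given in the sources used here, its few reads cannot be assigned with certainty. *Irf2bp2* is overlapped on the other strand by *Gm26759* (0 to 3 reads) over 1039 of the 3533 bases of its last exon, and *Irf7* by *Phrf1* over 45 bases. *Irf1*, *Irf3*, and *Irf9* share exonic bases with *Gm17334*, *Bcl2l12*, and *Rnf31*, respectively, but none in the last exon, where 3′ reads are expected.

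**Figure D2:**
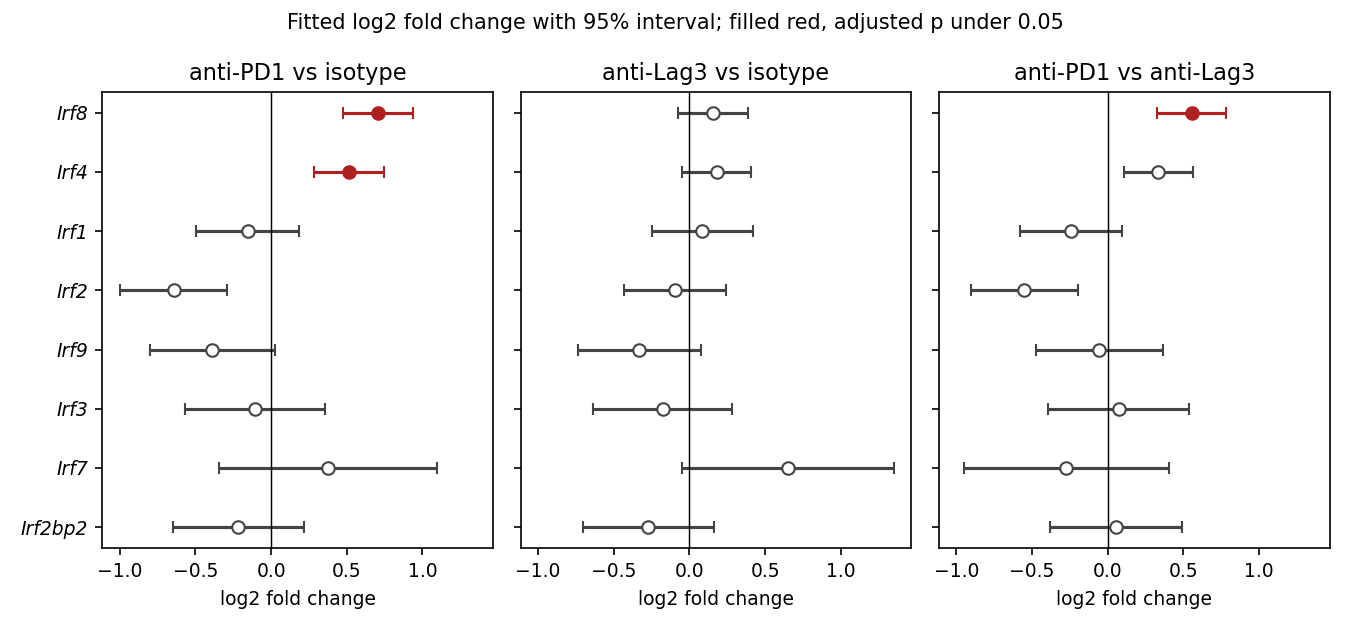
Fitted log2 fold change (points) with 95% interval (lines) of 8 members in the 3 comparisons, with the vertical line at 0 and filled red for adjusted p under 0.05. *Irf8* is called against both isotype and anti-Lag3, *Irf4* against isotype, and no member is called for anti-Lag3 against isotype. *Irf5* is left out because its intervals reach beyond the axis.

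Blockade of Lag3 moved no member past the threshold. *Irf4* and *Irf8* lay between the isotype and anti-PD1 levels, with log2 fold changes against isotype of 0.18 (95% interval -0.05 to 0.41) and 0.16 (-0.08 to 0.39). Of 9 members 0 were called by edgeR, DESeq2, or limma-voom, and 0 had an unadjusted p under 0.05 by any of the 3 tools, where edgeR called 0.0421% of all genes (0.0253% as higher and 0.0168% as lower), DESeq2 0.00842%, and limma-voom 0.0505%. The shares of all genes with an unadjusted p under 0.05 were 5.96%, 2.34%, and 5.88% by these tools. The isotype and anti-Lag3 libraries did not overlap for 6 members (*Irf4*, *Irf7*, and *Irf8* higher, *Irf2*, *Irf9*, and *Irf2bp2* lower), and that was so for 34.6% of all genes, 17.3% in each direction.

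*Irf7* had the greatest fitted change of the members with anti-Lag3 (log2 fold change 0.65, SE 0.35, 95% interval -0.05 to 1.35, edgeR adjusted p = 0.847). It measured 29.1 and 15.6 CPM there against 14.6 and 13.7 CPM with isotype, from 69, 42, 31, and 34 reads. The difference came mainly from anti-Lag3 1, without which the log2 fold change was 0.14. *Irf1* split the 2 anti-Lag3 mice the other way, with 86.9 CPM in anti-Lag3 1 and 129 CPM in anti-Lag3 2 around isotype values of 101 and 103. *Irf9* measured 45.1 and 47.9 CPM and *Irf2* 80.1 and 83.2 CPM with anti-Lag3, and their log2 fold changes were -0.33 (-0.74 to 0.08) and -0.09 (-0.43 to 0.24). Against isotype, the *Irf4* interval with anti-Lag3 overlapped that with anti-PD1, whereas the *Irf8* intervals did not overlap. Both comparisons use the same isotype mice, so the difference between the antibodies was tested directly, as follows.

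Compared directly, *Irf8* was higher with anti-PD1 than with anti-Lag3 by a log2 fold change of 0.55 (SE 0.11, 95% interval 0.33 to 0.78, 1.47-fold, adjusted p = 0.0104 by edgeR). It was the 1 member of 9 called, where 0.303% of all genes were, 0.244% as higher and 0.0589% as lower. The call was lost without anti-PD1 1 (edgeR adjusted p = 0.338) or anti-PD1 2 (0.189), at log2 fold changes between 0.50 and 0.60 over all libraries left out. *Irf4* differed in the same direction by 0.33 (SE 0.11, adjusted p = 0.380 by edgeR), and *Irf2* by -0.55 (SE 0.17, adjusted p = 0.315 by edgeR). For these 3 members the libraries of the 2 antibodies did not overlap, as for 35.9% of all genes (18.2% higher and 17.7% lower), and 3 of 9 members against 6.53% of genes had an unadjusted p under 0.05. The comparisons with isotype share the same 2 isotype mice, so the 3 comparisons are not independent of each other.

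The share of the family's reads that fell on *Irf4* and *Irf8* does not depend on how libraries were scaled. It was 60.4% and 55.5% with isotype, 72.0% and 71.4% with anti-PD1, and 63.3% and 60.6% with anti-Lag3. The widest 95% Wilson interval, for counting error only, ran from 58.2% to 62.6% (isotype 1), and the intervals of both anti-PD1 libraries lay above those of the other 4. The summed level of the other 7 members was 350 and 376 CPM with isotype, 309 and 296 CPM with anti-PD1, and 336 and 356 CPM with anti-Lag3.

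**Figure D3:**
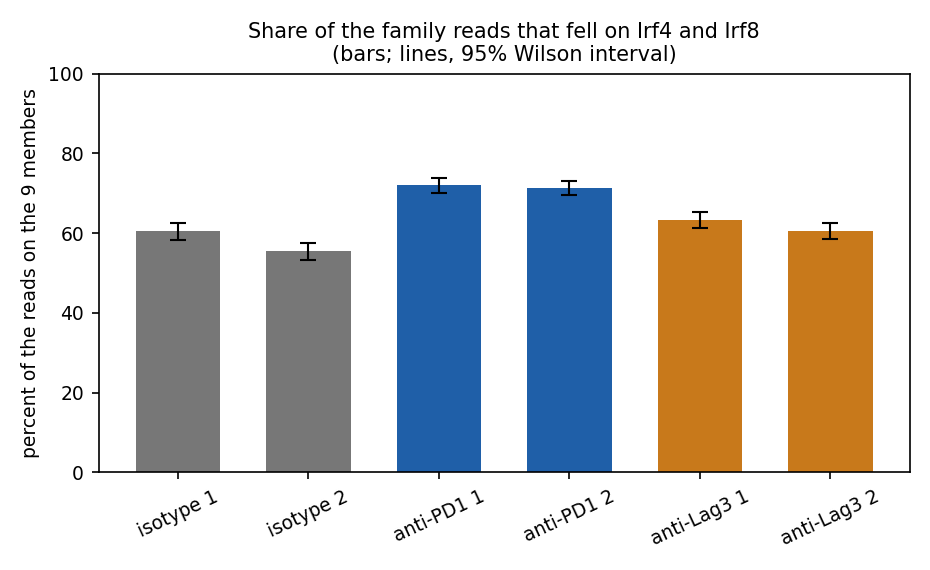
Percent of the reads on the 9 members that fell on *Irf4* and *Irf8* (bars from 0) in each library, with lines for the 95% Wilson interval of counting error. The anti-PD1 bars reach 72.0% and 71.4%, and the other 4 bars lie between 55.5% and 63.3%.

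Within a library, the log2 ratio of *Irf8* to *Irf4* was -0.03 and -0.15 with isotype, 0.10 and 0.12 with anti-PD1, and -0.20 and -0.03 with anti-Lag3. The paralogs were thus near parity in every mouse, and the anti-PD1 ratio was 0.20 above that of isotype (exact two-sided permutation test, p = 0.333, the smallest that 2 against 2 mice allow). The mean log2 ratio of *Irf8* to *Irf1* was 1.25 ± 0.19 with isotype and 2.11 ± 0.05 with anti-PD1 (SD, n = 2), and that of *Irf4* to *Irf1* was 1.34 ± 0.10 and 2.01 ± 0.04. These differences of 0.87 and 0.67 had groups that did not overlap and the same smallest possible p of 0.333 by the exact permutation test. With anti-Lag3 the differences from isotype were -0.02, 0.11, and 0.13 (exact permutation p = 1 for each). A design of this size cannot bring a single ratio under 0.05.

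*Irf4* and *Irf8* followed each other over the 6 libraries (Pearson r = 0.964 on log2 CPM), while *Irf2* ran opposite to both (r = -0.957 with *Irf4* and -0.981 with *Irf8*) and *Irf9* likewise (-0.833 and -0.769). The other members lay between -0.506 and 0.321. Among 3057 genes with a mean of at least 50 CPM, those whose profile was most like *Irf4* were *Stat5a* (r = 0.987), *Gpr65*, *Fmnl1*, *Tnfrsf4*, and *Ptpn4*, and for *Irf8* they were *Stat5a* (0.993), *Mafg*, *Rora*, *Eed*, and *Cmip*. *Stat5a*, which encodes a transducer of IL-2 family cytokines, was the closest gene to both, at 73.5 and 60.8 CPM with isotype, 126 and 117 CPM with anti-PD1, and 82.7 and 76.1 CPM with anti-Lag3. These correlations describe 6 points in 3 groups that share library and treatment, and any gene that differs by group will score high.

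The genes that act around the family were described in lists by role, all of them in the plot of fold changes by list. With anti-PD1 against isotype, the list upstream of *Irf4* and *Irf8* held 1 higher and 1 lower call. Their partners held 1 higher call and the *Irf4* targets 2. The interferon receptor and ISGF3 list also held 1 higher call, and the interferon-stimulated targets held 0 higher and 1 lower. Of all genes tested, 0.631% were called higher and 0.269% lower. With anti-Lag3 against isotype, 0 genes were called in each of these lists by edgeR, DESeq2, or limma-voom. An unadjusted p under 0.05 by edgeR was found for 1 to 7 genes of a list. The 7 were among the 17 tested *Irf4* targets, where 5.96% of all genes had such a p. The lists were drawn up with earlier results on these samples known and are no independent evidence of a direction.

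Upstream of *Irf4* and *Irf8*, 1 of 14 TCR and NF-κB pathway genes rose and 1 fell with anti-PD1. By edgeR, 0.631% of all genes were called higher in this comparison and 0.269% lower. *Malt1*, the protease of the CARMA1-BCL10-MALT1 complex that links the TCR to NF-κB, measured 109 and 64.8 CPM with isotype and 193 and 169 CPM with anti-PD1 (log2 fold change 1.06, SE 0.17, adjusted p = 7.6e-05 by edgeR), with 0.0553 without isotype 2. *Nfatc1*, a calcium-regulated factor of the same response, fell from 209 and 244 to 160.0 and 139 CPM (-0.60, SE 0.13, edgeR adjusted p = 0.00831), a call lost without isotype 2 (0.313) or anti-PD1 2 (0.360). *Nfkb1* (0.33) and *Lck* (-0.23), the other abundant genes of the list, were not called. The list median was -0.02, beside 0.00 for all genes.

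Among 15 tested partners of IRF4 and IRF8, *Stat3* alone was called with anti-PD1, where 0.901% of all genes were. It rose from 323 and 260.0 CPM to 473 and 438 CPM (log2 fold change 0.65, SE 0.12, adjusted p = 6.3e-04 by edgeR), was lost without isotype 2 (0.133) or anti-PD1 1 (0.0557). It was also called higher than with anti-Lag3 (0.49, edgeR adjusted p = 0.0420), a call lost by DESeq2 (0.0647), with filterByExpr (0.0706), and without anti-PD1 1 (0.597), anti-PD1 2 (0.303), or anti-Lag3 1 (0.226). *Ikzf1*, which encodes Ikaros, and *Rock2*, a kinase that phosphorylates IRF4, differed by -0.12 and 0.18 without a call. *Batf*, the AP-1 partner of IRF4 in T cells, is named here after its values were seen: it was at 41.5 and 44.3 CPM with isotype, 75.2 and 59.7 with anti-PD1, and 53.1 and 50.1 with anti-Lag3 (0.65 against isotype, edgeR adjusted p = 0.146 for anti-PD1). *Spi1* and *Spib*, the ETS partners of B and myeloid cells, stayed at or below 4.64 CPM in all libraries. The list median was 0.12.

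Of 17 tested genes that IRF4 is known to regulate in T cells, 2 rose and 0 fell with anti-PD1. The shares of all genes called were 0.631% higher and 0.269% lower. An unadjusted p under 0.05 was found by edgeR for 13 of the 17, where 8.12% of all genes had one. *Il21*, a follicular and Th17 helper cytokine, went from 16.0 and 8.45 CPM to 60.4 and 41.7 CPM (log2 fold change 2.07, SE 0.30, adjusted p = 1.5e-05 by edgeR), and stood at 30.4 and 26.7 CPM with anti-Lag3 (1.24, edgeR adjusted p = 0.281). *Hif1a*, a regulator of glycolysis, went from 384 and 321 CPM to 574 and 571 CPM (0.70, SE 0.11, edgeR adjusted p = 4.1e-05). Both calls held without each library in turn. *Maf* (0.48, edgeR adjusted p = 0.0511) and *Il2ra* (0.18) were the other most abundant genes of the list and were not called. The list median was 0.61, with 12 genes above 0 and 5 below, beside 0.00 for all genes tested. With anti-Lag3 against isotype the list tilted the same way, with 13 genes above 0 and 4 below and a median of 0.14. Against anti-Lag3, anti-PD1 gave 14 genes above 0 and 3 below, with a median of 0.15. The list was not divided into genes that IRF4 activates or represses, so these counts and medians give no direction of IRF4 activity.

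TCR-induced genes other than the IRFs gave 3 higher and 0 lower calls of 12 with anti-PD1, against 0.631% and 0.269% of all genes. The costimulatory receptor genes *Tnfrsf4* (OX40, 242 and 226 to 408 and 411 CPM, log2 fold change 0.81) and *Tnfrsf9* (4-1BB, 59.4 and 64.8 to 117 and 139.8 CPM, 1.05) and the phosphatase gene *Dusp5* (67.4 and 62.4 to 129 and 109.6 CPM, 0.88) had edgeR adjusted p-values of at most 0.00114. *Tnfrsf9* was lost without anti-PD1 2 (0.0732) and *Dusp5* without isotype 2 (0.0553) or anti-PD1 1 (0.102). *Nr4a3*, of the same list, differed by -0.70 (edgeR adjusted p = 0.195), so the list did not move as a block, and its median was 0.45.

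**Figure D4:**
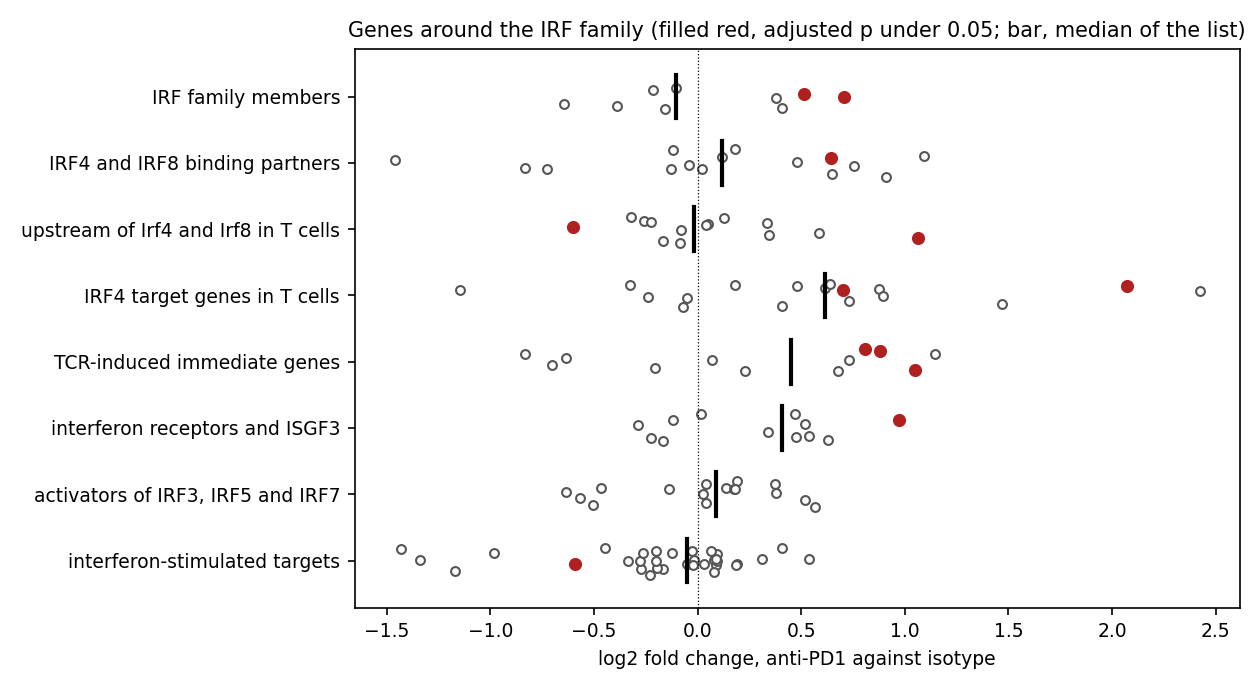
Log2 fold change with anti-PD1 against isotype of every tested gene in the family and in 7 lists around it (points, offset vertically for legibility), with black bars for list medians and filled red for adjusted p under 0.05. The *Irf4* target list has a median of 0.61, and the 33 interferon-stimulated targets center on -0.05.

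Along the interferon axis, which uses *Irf1*, *Irf7*, and *Irf9*, 1 of 12 receptor, kinase, and ISGF3 genes rose with anti-PD1 and 0 fell. Among all genes, 0.631% were called higher and 0.269% lower. *Jak2*, the kinase of the interferon-γ receptor and of several cytokine receptors, measured 55.1 and 55.9 CPM with isotype, 112 and 106 CPM with anti-PD1, and 68.3 and 54.6 CPM with anti-Lag3 (log2 fold change against isotype 0.97, SE 0.18, adjusted p = 7.1e-04 by edgeR, kept without each library). *Jak1* (0.02) and the phosphatase gene *Ptpn2* (0.54, edgeR adjusted p = 0.0623) were not called. *Ifng* reads gave 2.01 to 12.3 CPM, and *Ifnb1* and *Ifna4* had 0 reads in every library.

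Sensors and adaptors that activate IRF3, IRF5, and IRF7 gave 0 calls of 16 tested with anti-PD1 by edgeR, with 1 unadjusted p under 0.05 by edgeR, 0 by DESeq2, and 2 by limma-voom, neither of the last tools making a call. The shares of all genes with such a p were 8.12%, 4.08%, and 7.75%. Their median was 0.09, and the most abundant, *Irak1*, *Myd88*, and *Tmem173* (STING), differed by 0.14, 0.38, and 0.02. The 33 interferon-stimulated targets had 0 higher calls and 1 lower call, a median of -0.05, and 13 genes above 0 against 20 below. Over all genes the shares called were 0.631% higher and 0.269% lower. The lower call was *Ifi203*, an interferon-inducible DNA sensor gene, at 159 and 144 CPM with isotype and 103.5 and 97.7 CPM with anti-PD1 (log2 fold change -0.59, edgeR adjusted p = 0.0305), which DESeq2 did not call (0.128) and which was lost without any 1 of the 4 libraries. *B2m*, *Psmb8*, and *Ifi27l2a*, the most abundant of these targets, differed by -0.02, -0.20, and 0.09.

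*Irf8*, *Irf4*, and *Irf5* are also genes of B cells, dendritic cells, and macrophages, so markers of those cells were summed in each library. The 12 B cell markers came to 127 and 144 CPM with isotype, 70.0 and 56.8 CPM with anti-PD1, and 87.7 and 129 CPM with anti-Lag3, with *Cd79a* at 0 in all 6 libraries. The 13 macrophage and monocyte markers came to 92.8 and 75.3, 26.8 and 45.4, and 47.7 and 45.3 CPM in the same order. Most of the B cell sum came from *Ighm*, at 82.5 and 95.8, 53.7 and 43.3, and 70.0 and 107.7 CPM in that order. The B cell sum was lowest with anti-PD1, and the macrophage sum was below isotype with both antibodies. The part of such cells in the *Irf4* and *Irf8* levels was not tested. Among the tested B cell and macrophage markers, 8 of 9 and 10 of 12 were below 0 with anti-PD1. *Igkc*, *Ighm*, and *C1qa* were called lower by edgeR (*Ighm* and *C1qa* not by DESeq2, and *C1qa* not by limma-voom), where 0.269% of all genes were. *C1qa* rests on 3 to 29 reads per library. Without single libraries the log2 fold changes ran from -3.20 to -2.00 (*Igkc*), -1.04 to -0.74 (*Ighm*), and -3.04 to -2.29 (*C1qa*). The 14 dendritic cell markers came to 85.3 and 99.8, 75.7 and 80.6, and 80.5 and 83.6 CPM, most of it from *Bst2*, which T cells also express, and *Zbtb46*, *Clec9a*, *Siglech*, and *Cd209a* were at 0 throughout. The 6 CD8 T cell and NK cell markers came to 66.9 and 60.4, 42.2 and 44.2, and 43.9 and 40.1 CPM, so both antibody groups lay below both isotype libraries. Most of each sum came from *Cd8b1* (49.5 and 41.5, 32.1 and 27.8, and 29.5 and 30.8 CPM), while *Cd8a* lay at 1.86 to 6.84 CPM. No tested gene of this list was called against isotype with either antibody. Of the 10 T cell markers, 4 were above 0 and 6 below with anti-PD1 against isotype, with a median of -0.22. An unadjusted p under 0.05 by edgeR was found for 6 of these 10, where 8.12% of all genes had one. *Cd5* was called higher (log2 fold change 1.01, edgeR adjusted p = 0.00154), where 0.631% of all genes were. This change depended on single libraries, with a log2 fold change of 0.76 without anti-PD1 2 and 1.21 without anti-PD1 1. *Irf2* was lower with anti-PD1, as the B cell and macrophage sums were, and their part in its value was not tested.

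Of the 2 further corepressor genes, *Irf2bpl* ranged from 31.1 to 45.3 CPM with overlapping groups. *Irf2bp1* measured 25.4 and 29.4 CPM with isotype, 24.0 and 22.5 CPM with anti-PD1, and 21.1 and 16.0 CPM with anti-Lag3, the lowest pair, with a log2 fold change for anti-Lag3 of -0.57 (SE 0.29, edgeR adjusted p = 0.843).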

How the data were processed

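Libraries were made with a QuantSeq 3′ forward kit from sorted CD4+ T cells of 2 mice per group. After trimming (Bbduk), the authors mapped reads to GRCm38 (mm10) by STAR 2.5.2a and used HTSeq to count them by gene, and the deposited table holds these raw counts. A second deposited table holds their DESeq2 rlog values on a log2 scale, which were checked but not tested. The strand setting and annotation release are not given in the sources used here, and 1 further replicate batch that the authors set aside was not analysed here.

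The 9 members and all gene lists were chosen with earlier results of these data known. Symbols came from GENCODE M21 (47224 of 47643 identifiers). Genes with at least 10 reads over the 6 libraries were fitted together by edgeR 4.0.16 (R 4.3.3) with TMM scaling, no block, the quasi-likelihood test, and Benjamini-Hochberg adjustment over 11877 genes at 0.05. CPM are TMM-scaled. Log2 ratios used 0.5 added reads. *Gm42418*, an rRNA-rich locus, took 17.4% to 21.0% of counts. Genes named are the members, overlapping genes, called genes and the 3 most abundant of each list, and the 5 genes most like *Irf4* and *Irf8* in profile, and some genes under this rule are not reported here. Alternatives were DESeq2 1.42.0, limma-voom 3.58.1, other scalings and filters, 4-sample fits, leaving out each library, and a replicate block. Scripts were tested on simulated data. Intervals on shares and limits at 0 reads cover counting error only. Protein identity between members had been planned and was not computed here.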

Additional observations from a re-analysis of the deposited data

How the results depend on the processing

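Across DESeq2, limma-voom, fits of 4 samples, other scalings, the removal of *Gm42418* and mitochondrial rRNA, and other filters, *Irf4* and *Irf8* kept their calls with anti-PD1 against isotype, and *Irf8* kept its call against anti-Lag3. Calls over all genes moved more: with anti-PD1 against isotype there were 107 and 175 when 4 samples were fitted. With anti-Lag3 against isotype there were 5, but 1 by DESeq2, 0 with 4 samples, 3 without *Gm42418* and mitochondrial rRNA, 0 with filterByExpr, and 20 with no filter beyond 1 read. Between the antibodies there were 36, but 16 by DESeq2 and 58 with no filter beyond 1 read. *Irf5* could not be tested under filterByExpr, and its log2 fold change with anti-Lag3 turned to -0.83 by limma-voom.

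Leaving out each library in turn gave 53 to 185 calls and 1 to 3 called members with anti-PD1 against isotype, 0 to 19 calls with anti-Lag3 against isotype, and 7 to 59 calls and 0 to 1 called members between the antibodies. Log2 fold changes that changed sign there ran, against isotype with anti-PD1, from -0.25 to 0.073 for *Irf3*, -0.0043 to 1.05 for *Irf5*, and -0.53 to 0.055 for *Irf2bp2*. With anti-Lag3 against isotype they ran from -0.22 to 0.33 for *Irf1*, -0.53 to 0.12 for *Irf3*, and -4.84 to 1.12 for *Irf5*, and the log2 ratios from -0.11 to 0.064 (*Irf8* to *Irf4*), -0.18 to 0.39 (*Irf8* to *Irf1*), and -0.24 to 0.49 (*Irf4* to *Irf1*). Between the antibodies they ran from -0.49 to 0.068 for *Irf1*, -0.23 to 0.42 for *Irf3*, -0.72 to 5.24 for *Irf5*, -0.67 to 0.24 for *Irf7*, and -0.26 to 0.32 for *Irf2bp2*. The cause of these shifts was not tested.

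With the replicate number as a block there were 144, 6, and 46 calls in the 3 comparisons, and 2, 0, and 1 called members, as without it. Same-numbered libraries deviated together by a correlation of 0.0703 (isotype and anti-PD1), 0.0711 (isotype and anti-Lag3), and -0.105 (anti-PD1 and anti-Lag3). The paper states that the replicate it set aside had been handled as a batch from sorting onward. The labels do not say whether same-numbered libraries here shared a batch, and correlations near 0 cannot show that they did not. The main fit used no block. A crossed replicate block, chosen after seeing the data, gave 103, 4, and 35 calls. The block turned *Irf5* with anti-Lag3 to -0.016, and the crossed block to -0.17.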
